A study of Mus musculus with 17 samples.

Results

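The genes described are 31 genes of the T cell receptor complex and of the T cell lineage, listed by gene symbol. They comprise 4 CD3 and zeta chains (Cd3d, Cd3e, Cd3g, Cd247), 3 co-receptor chains (Cd4, Cd8a, Cd8b1) and 7 proximal signalling genes (Zap70, Lat, Trat1, Skap1, Sh2d1a, Sh2d2a, Themis). A further 4 restrain the signal (Ptpn22, Ubash3a, Cd5, Cd6), 4 are surface or costimulatory molecules (Cd2, Cd27, Cd96, Thy1) and 2 are cytokine receptor chains (Il7r, Il2rb). The list ends with 5 lineage factors (Gata3, Maf, Tbx21, Bcl11b, Lef1) and 2 genes of tissue exit and retention (S1pr1, Cd69). All 31 were measured, each by 1 probe set that carries a single gene symbol, among 19751 genes tested in all.

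The lungs came from 17 Balb/c mice, each hybridised to 1 Affymetrix array of the Mouse Gene 1.0 ST type. The anti-RGMb group (6 mice) was sensitized and challenged with ovalbumin (OVA) and was given a monoclonal antibody to RGMb, a membrane-anchored co-receptor for bone morphogenetic proteins that binds neogenin. The isotype group (5 mice) received OVA in the same way with an isotype antibody, and the saline group (6 mice) was sensitized and challenged with saline, with no antibody named. Lungs of all groups were taken at 1 time point. Experiment 1 held 3 mice of each group, named 1, 2 and 3, and experiment 2 held 3 anti-RGMb, 2 isotype and 3 saline mice, named 1-2, 2-2 and 3-2. The sample titles do not name the experiment. Names ending in -2 were read as experiment 2 from the counts per group in the series design. The labels give neither age, sex, antibody clone nor dose, and none of the groups received the antibody without OVA, so its effect on the OVA response and its effect on resting lung cannot be told apart. A difference between isotype and saline mice includes any action of the isotype antibody.

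The T cell receptor has no signalling tail of its own and depends on the CD3 and zeta chains, whose phosphorylated motifs recruit the kinase ZAP-70, which in turn acts on the adaptor LAT. The co-receptors CD4 and CD8 bind class II and class I MHC molecules and mark helper and cytotoxic T cells. In allergic airways, helper T cells that recognise the inhaled protein enter the lung and make type 2 cytokines, some stay as resident cells, and cells that leave tissue do so through the sphingosine phosphate receptor S1PR1.

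The lungs are mixtures of cells, and fewer T cells and less RNA per T cell cannot be told apart in them. A gene was counted as dim, or below the lower quartile in saline mice, if it lay below that quartile of genes in both experiments. None of the 10 alveolar and airway epithelial markers and none of the 12 endothelial markers looked at was dim. Of the 31 T lineage genes Trat1 alone was dim. In experiment 2 the saline mean of Sh2d1a was under that of Trat1 (log2 6.155 against 6.1597), so Sh2d1a lay below the quartile there. Array medians were 120 to 125 in experiment 1 and 362 to 386 in experiment 2 in units of linear intensity. Each level is therefore given as log2 relative to the mean of the saline mice in the same experiment, and each test carried a term for the experiment. Without that term 0 of the 31 genes passed in each comparison in limma, with 0, 2 and 0 at an unadjusted p under 0.05. The test was limma's moderated test, 2-sided, with Benjamini-Hochberg adjustment over all 19751 genes and a threshold of 0.05. Values after ± are standard errors of log2 differences, from 6 anti-RGMb, 5 isotype and 6 saline mice. For anti-RGMb and saline mice the lowest, median and highest level are given, and for isotype mice the levels of mice 1, 2, 3, 1-2 and 2-2 in that order. Absolute levels of different probe sets were not set against each other. Levels relative to saline were, in differences between 2 genes and in means over genes.

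Promoter windows of 300 bases, most of them before and a few after a gene's start, were found in RefSeq (build GRCm38.p6) for 19 of the 31 genes, 26 windows in all. Both strands were searched for 1 motif each of 4 families of factors that T cells use, and none of the motifs contains another. The RUNX motif, spelled TGTGGT, stood in 6 of the 26 windows, against 16.8% of all 32851 windows in the table. The ETS motif, spelled AGGAAG, stood in 13 of the 26 windows, against 35.4% of all. The GATA motif, spelled AGATAA, stood in 3 of the 26 windows, against 11.2% of all. The TCF/LEF motif, spelled CTTTGA, stood in 7 of the 26 windows, against 16% of all. In the annotation Cd3g, Cd3d and Cd3e are neighbours on chromosome 9, Cd8b1 and Cd8a on chromosome 6, and Cd5 and Cd6 on chromosome 19. The windows of the 3 neighbouring CD3 genes are printed because these genes are the core of the complex. Those of Il7r and Ptpn22 are shown because their genes had the largest differences between isotype and saline mice. That of Cd8a is shown as an example of the genes that passed the threshold in no comparison. Capitals mark matches of any of the 4 motifs on either strand, and a match describes letters and not a bound site. The window of Ptpn22 is the second of its 2 and holds 3 RUNX matches, while the first holds no RUNX match. That of Cd8a holds no match of the 4 motifs, and neither do those of Themis, which passed in both comparisons with isotype mice. The window of Cd96, which passed in no comparison, holds 2 RUNX matches.
Cd3g (chr9:44980382-44980681, minus strand): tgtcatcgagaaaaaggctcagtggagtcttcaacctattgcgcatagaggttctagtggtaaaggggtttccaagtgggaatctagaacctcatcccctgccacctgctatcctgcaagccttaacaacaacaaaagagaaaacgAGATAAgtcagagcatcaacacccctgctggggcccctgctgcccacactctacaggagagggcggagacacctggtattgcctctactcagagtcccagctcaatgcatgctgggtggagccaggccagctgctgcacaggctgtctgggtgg
Cd3d (chr9:44981536-44981835, plus strand): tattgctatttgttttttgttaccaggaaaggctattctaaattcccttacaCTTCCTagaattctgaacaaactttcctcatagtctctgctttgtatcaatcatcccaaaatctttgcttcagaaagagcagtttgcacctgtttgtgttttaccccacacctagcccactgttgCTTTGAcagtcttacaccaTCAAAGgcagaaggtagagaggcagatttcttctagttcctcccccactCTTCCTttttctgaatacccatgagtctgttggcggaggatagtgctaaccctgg
Cd3e (chr9:45009562-45009861, minus strand): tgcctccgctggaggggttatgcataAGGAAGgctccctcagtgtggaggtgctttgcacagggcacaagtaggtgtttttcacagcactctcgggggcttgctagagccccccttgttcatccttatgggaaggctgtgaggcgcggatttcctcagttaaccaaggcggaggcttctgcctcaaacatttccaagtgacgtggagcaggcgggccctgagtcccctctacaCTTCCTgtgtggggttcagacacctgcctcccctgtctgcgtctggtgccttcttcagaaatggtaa
Il7r (chr15:9529827-9530126, minus strand): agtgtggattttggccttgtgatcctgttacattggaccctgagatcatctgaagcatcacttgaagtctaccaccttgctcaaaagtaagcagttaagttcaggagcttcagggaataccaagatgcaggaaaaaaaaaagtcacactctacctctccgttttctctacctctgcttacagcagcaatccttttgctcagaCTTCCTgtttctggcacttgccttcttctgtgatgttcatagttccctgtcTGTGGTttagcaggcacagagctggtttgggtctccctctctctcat
Ptpn22 (chr3:103860027-103860326, plus strand): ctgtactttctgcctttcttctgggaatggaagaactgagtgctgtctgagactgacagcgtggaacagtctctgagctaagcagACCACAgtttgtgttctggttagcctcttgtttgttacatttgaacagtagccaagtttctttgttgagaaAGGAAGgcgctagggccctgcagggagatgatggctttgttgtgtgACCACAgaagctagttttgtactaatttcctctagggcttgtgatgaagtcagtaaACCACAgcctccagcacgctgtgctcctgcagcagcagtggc
Cd8a (chr6:71373177-71373476, plus strand): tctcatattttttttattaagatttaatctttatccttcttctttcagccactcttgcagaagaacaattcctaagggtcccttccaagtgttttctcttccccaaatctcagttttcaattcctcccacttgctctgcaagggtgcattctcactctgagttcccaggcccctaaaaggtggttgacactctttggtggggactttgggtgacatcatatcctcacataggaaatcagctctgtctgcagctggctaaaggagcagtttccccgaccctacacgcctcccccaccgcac

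Anti-RGMb and isotype mice, both given OVA, were compared to ask what the antibody to RGMb changed in the allergic lung. Most genes of T cell receptor signalling and both cytokine receptor chains were lower in anti-RGMb mice, with Il7r lowest by size (-0.84 ± 0.14), while S1pr1 was higher (0.60 ± 0.08). Of the 31 genes, 17 fell, 1 rose and 13 did not pass, and the median log2 difference was -0.28, against 0.03 over all genes. Among all genes tested, 10.0% were lower and 11.1% higher. No anti-RGMb mouse overlapped an isotype mouse in 8 genes that were lower (Zap70, Skap1, Sh2d1a, Sh2d2a, Ptpn22, Ubash3a, Il7r, Maf) and in 1 that was higher (S1pr1), as was so for 5.12% and 4.89% of all genes.

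Most of these genes passed in experiment 2 alone, which holds 2 isotype mice, and few in experiment 1 alone. Taken alone, experiment 1 gave 2 of the 31 genes past the threshold, Maf lower (-0.25, adjusted p = 0.0407) and S1pr1 higher (0.51, adjusted p = 0.0108), against 6.48% of all genes. Experiment 2 gave 20 genes, 19 lower and 1 higher, against 19.9% of all genes. All 17 genes that fell over both experiments had the more negative difference in experiment 2, as did 30 of the 31 genes. The median difference over all genes was 0.01 in experiment 1 and 0.04 in experiment 2. The difference between the 2 experiments in this comparison, tested as an interaction term, had an unadjusted p under 0.05 in 20 genes. At an adjusted p under 0.05 it had 1, Sh2d2a, against 0.471% of all genes at that adjusted threshold. For unadjusted interaction counts, in this and the other comparisons, no share over all genes was computed. The mouse with the highest mean over the 31 genes in the anti-RGMb group was mouse 1 of experiment 1, at 0.42, where the other anti-RGMb mice lay between -0.02 and 0.19. Isotype mice had means between 0.25 and 0.61 and saline mice between -0.12 and 0.09. Without anti-RGMb mouse 1 the count past the threshold was 20 genes, and without isotype mouse 1-2, which had the highest mean of all, it was 12. In each of 17 fits that left out 1 mouse, 12 of the 18 calls held (S1pr1, Cd3d, Cd4, Zap70, Skap1, Sh2d1a, Sh2d2a, Ptpn22, Ubash3a, Cd6, Il7r and Maf).

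**Figure D1:**
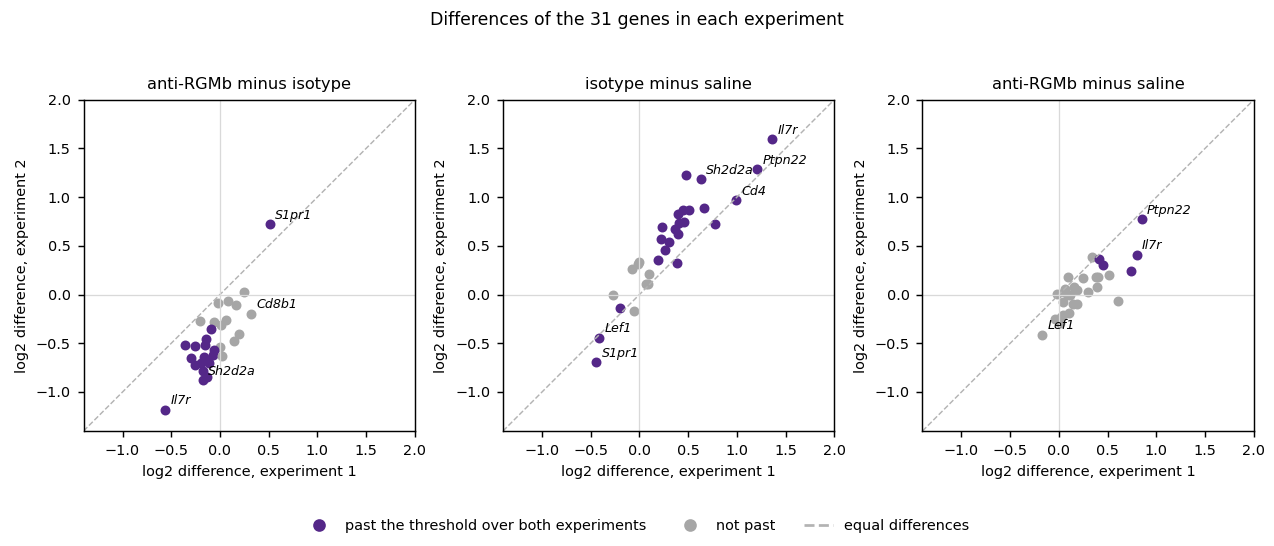
Log2 difference of each of the 31 genes in experiment 1 (x axis) and experiment 2 (y axis) for the 3 comparisons, with the dashed line where both are equal and purple points for genes past the threshold over both experiments. Between anti-RGMb and isotype mice 30 of the 31 points lie under the line, with Il7r at -0.57 and -1.18, while S1pr1 lies above it at 0.51 and 0.72.

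The comparison of isotype with saline mice asked how the lung responded to OVA under a control antibody. Here 20 genes rose, 3 fell (Cd27, Lef1 and S1pr1) and 8 did not pass, with a median of 0.40, against -0.04 over all genes. Of all genes, 14.6% rose and 21.0% fell. The largest rises were in Il7r (1.45 ± 0.14), Ptpn22 (1.24 ± 0.08) and Cd4 (0.96 ± 0.13). All isotype mice lay above all saline mice in 16 genes and below them in 2 (S1pr1 and Cd27), against 10.6% and 12.9% of all genes. Alone, experiment 1 gave 16 genes past the threshold, 14 of them higher, against 20.4% of all genes, and experiment 2 gave 22, 20 of them higher, against 29.6%. No gene passed the interaction in limma, 9 had an unadjusted p under 0.05, and 0.668% of all genes passed the adjusted threshold. With each mouse left out in turn, 20 of the 23 calls held, the exceptions being Cd3e, Cd2 and Cd27.

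The comparison of anti-RGMb with saline mice asked how much of that response was present under anti-RGMb. In this comparison 5 genes rose (Cd4, Sh2d2a, Ptpn22, Il7r and Maf), against 4.26% of all genes, and 26 did not pass. None fell in limma, where 10 genes (these 5 among them) were higher and 2 lower at an unadjusted p under 0.05. Of all genes, 2.24% fell at the adjusted threshold, and for the unadjusted counts no share was computed. The median was 0.11, against -0.01 over all genes. Among the genes that did not pass, some had 95% intervals that left out 0. Above 0 were Thy1 (0.29, interval 0.09 to 0.48), Cd5 (0.28, 0.07 to 0.49) and Sh2d1a (0.21, 0.0042 to 0.41). So were Cd69 (0.36, 0.08 to 0.64) and Il2rb (0.36, 0.06 to 0.67). Below 0 were Lef1 (-0.29, -0.47 to -0.11) and Cd27 (-0.14, -0.27 to -0.02). With 1 mouse left out, Lef1 passed in 5 of 17 fits, Thy1 in 2, and Cd5 and Cd27 in 1 each. All anti-RGMb mice lay above all saline mice in 4 genes (Sh2d2a, Ptpn22, Cd5 and Maf) and below them in 0, against 4.18% and 2.66% of all genes. Experiment 1 alone gave 5 genes, against 3.86% of all genes, and experiment 2 gave 2, against 3.31%. No gene passed the interaction, in which 4 genes had an unadjusted p under 0.05 and 0% of all genes passed the adjusted threshold. Without isotype mouse 1-2, which enters through the shared estimate of spread, the count was 8. The 3 comparisons share mice, so a gene high in isotype mice alone differs with opposite signs in the first and second of them.

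**Figure D2:**
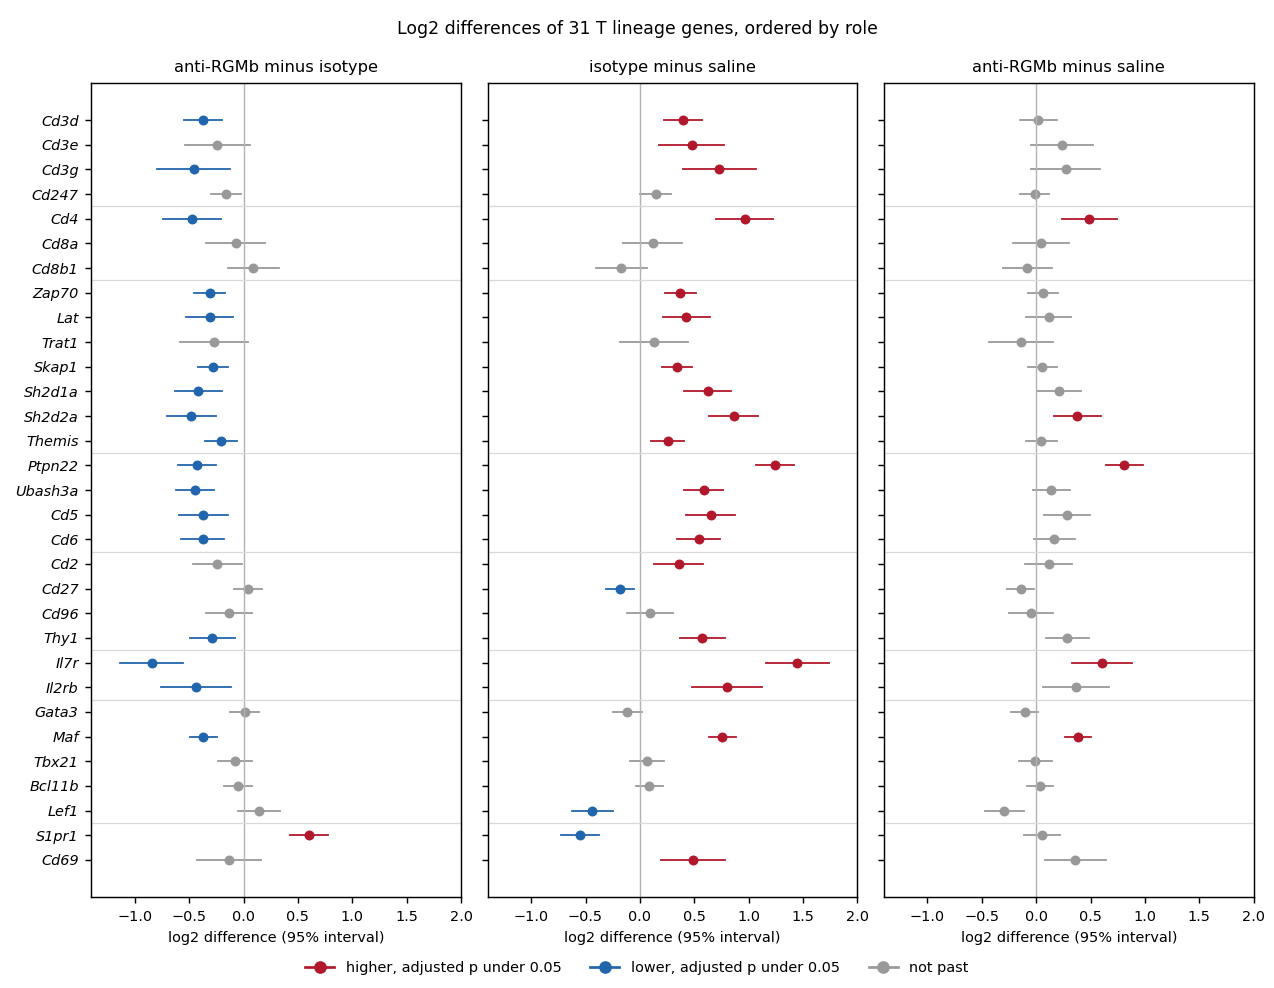
Log2 differences of the 31 genes (points) with 95% intervals (lines) in the 3 comparisons, grouped by role from the CD3 chains at the top to S1pr1 and Cd69 at the bottom, with red for genes past the threshold and higher, blue for lower and grey for not past. The left panel is mostly blue (17 genes, with S1pr1 red), the middle panel mostly red (20 genes), and the right panel mostly grey (26 genes).

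**Figure D3:**
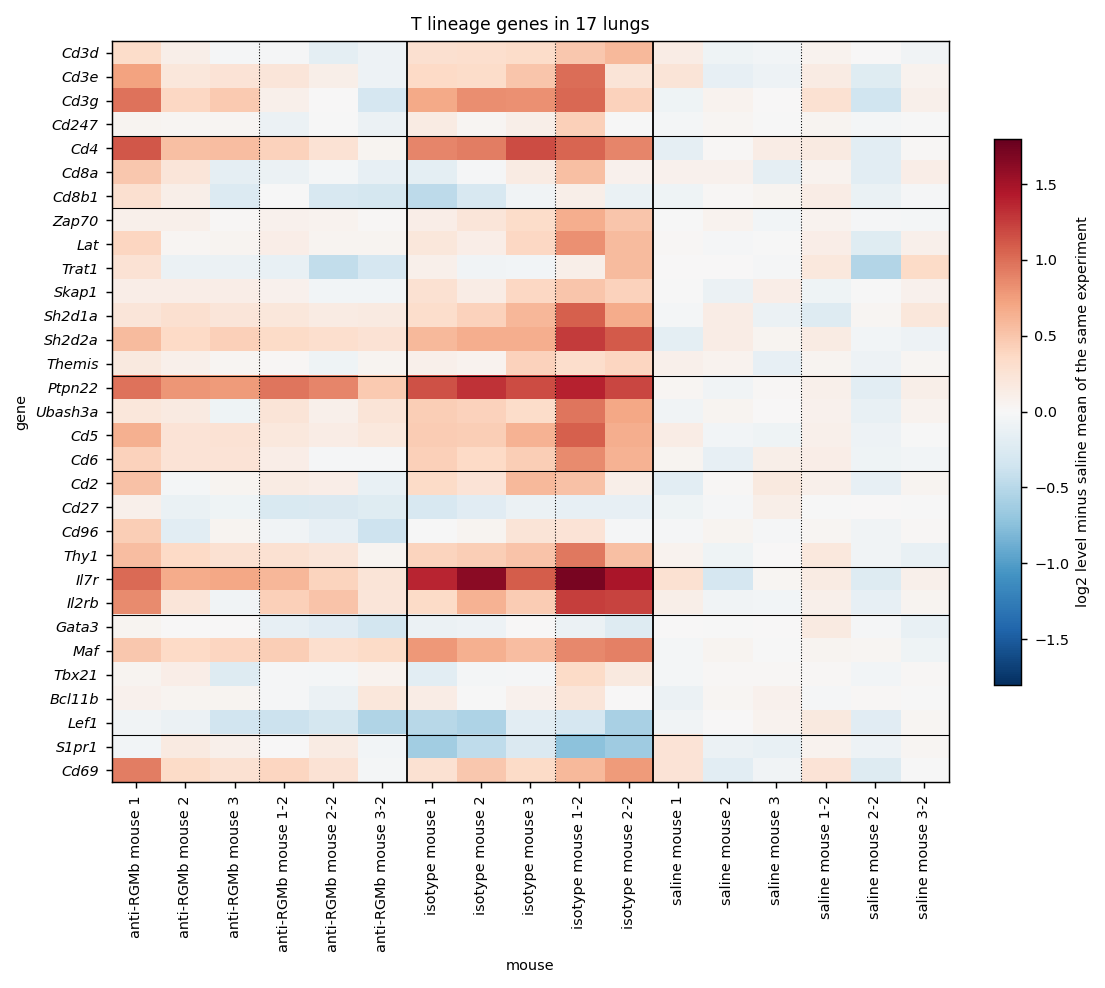
Level of each of the 31 genes (rows) in each of the 17 mice (columns), as log2 minus the saline mean of the same experiment, red above and blue below it. Solid vertical lines separate anti-RGMb, isotype and saline mice, dotted lines the experiments, and horizontal lines the roles. Anti-RGMb mouse 1 has a mean over the genes of 0.42, the level of isotype mouse 2-2 (0.42) and below isotype mouse 1-2 (0.61).

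The CD3 and zeta chains carry the signal of the receptor into the cell. Cd3d, the delta chain, stood at -0.18, -0.02 and 0.33 in anti-RGMb mice, at 0.29, 0.30, 0.33, 0.49 and 0.59 in isotype mice and at -0.08, -0.02 and 0.13 in saline mice. Only anti-RGMb mouse 1 reached the isotype range, and every isotype mouse lay above every saline mouse. Cd3d fell by 0.38 ± 0.08 in anti-RGMb against isotype mice (adjusted p = 0.00307), a call that held in all 17 fits with 1 mouse left out, and rose by 0.40 ± 0.08 in isotype against saline mice (adjusted p = 0.00091). Against saline mice the anti-RGMb mice differed by 0.02 ± 0.08, with a 95% interval of -0.15 to 0.19.

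Cd3g, the gamma chain, stood at -0.31, 0.23 and 0.98 in anti-RGMb mice, 0.68, 0.83, 0.83, 1.03 and 0.41 in isotype mice and -0.36, 0.04 and 0.27 in saline mice. Anti-RGMb mouse 1 lay above 4 of the 5 isotype mice, and isotype mouse 2-2 below 2 of the 6 anti-RGMb mice, while isotype and saline mice did not overlap. The log2 difference was -0.46 ± 0.16 between anti-RGMb and isotype mice, at an adjusted p of 0.049. This call was kept only without anti-RGMb mouse 1 or saline mouse 1-2 and was lost in the other 15 fits with 1 mouse left out, in which the adjusted p reached 0.159. Between isotype and saline mice the difference was 0.73 ± 0.16 (adjusted p = 0.00138), and between anti-RGMb and saline mice 0.27 ± 0.15 (adjusted p = 0.368).

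Cd3e, the epsilon chain that pairs with both of the other CD3 chains, stood at -0.09, 0.21 and 0.73 in anti-RGMb mice, 0.36, 0.33, 0.49, 1.00 and 0.23 in isotype mice and -0.21, -0.01 and 0.24 in saline mice. The groups overlapped, with isotype mouse 1-2 and anti-RGMb mouse 1 above the rest. Cd3e rose in isotype against saline mice (0.48 ± 0.14, adjusted p = 0.0132), which without isotype mouse 1-2 became 0.31 (adjusted p = 0.0519). The difference between anti-RGMb and isotype mice was -0.24 ± 0.14 and did not pass (adjusted p = 0.264). Cd247, the zeta chain that holds the largest set of signalling motifs, stood at -0.11, 0.01 and 0.06 in anti-RGMb mice, 0.15, 0.04, 0.11, 0.43 and -0.0081 in isotype mice and -0.04, -0.007 and 0.05 in saline mice. Its groups overlapped, and it passed in none of the 3 comparisons, with differences of -0.16 ± 0.07 between anti-RGMb and isotype, 0.14 ± 0.07 between isotype and saline and -0.02 ± 0.06 between anti-RGMb and saline mice. Without isotype mouse 2-2 it passed in the first (-0.20, adjusted p = 0.0439) and in the second (0.19, adjusted p = 0.0389).

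**Figure D4:**
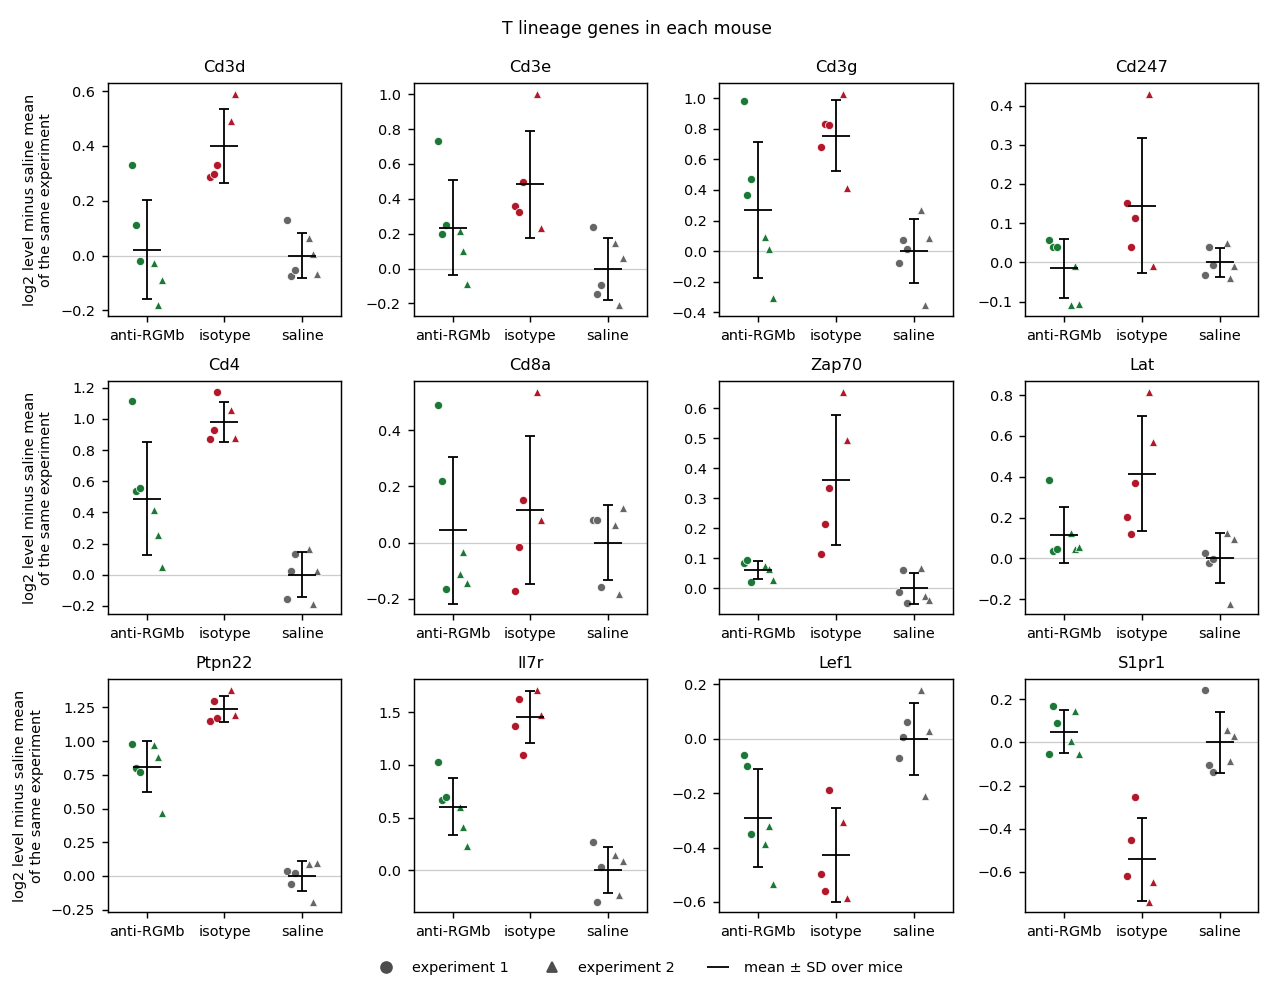
Level of 12 of the genes in each mouse, as log2 minus the saline mean of the same experiment, with circles for experiment 1, triangles for experiment 2, and the mean ± SD over mice in black. For Ptpn22 the anti-RGMb mice lie between isotype and saline mice with no overlap, for Il7r 1 of them (mouse 3-2, 0.23) reaches the saline range, all 5 isotype mice lie at -0.26 or lower for S1pr1, and the groups overlap for Cd8a.

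Of the 3 co-receptor chains, Cd4 passed in all 3 comparisons and Cd8a and Cd8b1 in none. Cd4, which binds MHC class II, stood at 0.05, 0.48 and 1.12 in anti-RGMb mice, 0.87, 0.93, 1.17, 1.05 and 0.88 in isotype mice and -0.19, 0.02 and 0.16 in saline mice. Apart from anti-RGMb mouse 1, at the level of isotype mice, all anti-RGMb mice were lower than all isotype mice, and every isotype mouse was higher than every saline mouse. Anti-RGMb mouse 3-2 lay within the saline range. Cd4 in anti-RGMb mice was 0.72 times the isotype level (-0.47 ± 0.13, adjusted p = 0.0107), and isotype mice were at 1.95 times saline (0.96 ± 0.13, adjusted p = 8.32e-06). It also stood above saline in anti-RGMb mice (0.49 ± 0.12, adjusted p = 0.0174).

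Cd8a, a chain of the MHC class I co-receptor, stood at -0.16, -0.07 and 0.49 in anti-RGMb mice, -0.17, -0.01, 0.15, 0.54 and 0.08 in isotype mice and -0.18, 0.07 and 0.12 in saline mice. Cd8b1, the partner chain used by conventional cytotoxic T cells, stood at -0.32, -0.13 and 0.28 in anti-RGMb mice, -0.48, -0.29, -0.06, 0.10 and -0.12 in isotype mice and -0.12, 0.0027 and 0.14 in saline mice. The groups overlapped in both genes. For Cd8a the 95% interval was -0.34 to 0.20 between anti-RGMb and isotype mice and -0.15 to 0.38 between isotype and saline mice, and for Cd8b1 the intervals were -0.15 to 0.33 and -0.41 to 0.07.

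The log2 difference between Cd4 and Cd8a within each array, relative to saline, was 0.19, 0.42 and 0.72 at the lowest, median and highest in anti-RGMb mice. It was 1.04, 0.94, 1.02, 0.52 and 0.80 in isotype mice, and -0.24, -0.03 and 0.29 in saline mice. Every isotype mouse lay above every saline mouse, and anti-RGMb mice overlapped both groups. An exact permutation of group labels within experiments, over 9 such tests adjusted together and 2-sided, gave a difference of -0.39 between anti-RGMb and isotype mice (p = 0.015, adjusted p = 0.0338). It gave 0.85 between isotype and saline mice and 0.45 between anti-RGMb and saline mice, each at p = 0.005, the smallest that permutations can give, and adjusted p = 0.015. The first call was lost in exact tests without any 1 of isotype mice 1, 2, 3 and 2-2 or of anti-RGMb mice 2-2 and 3-2, at differences of -0.36 to -0.40 and adjusted p of 0.054 to 0.0675.

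**Figure D5:**
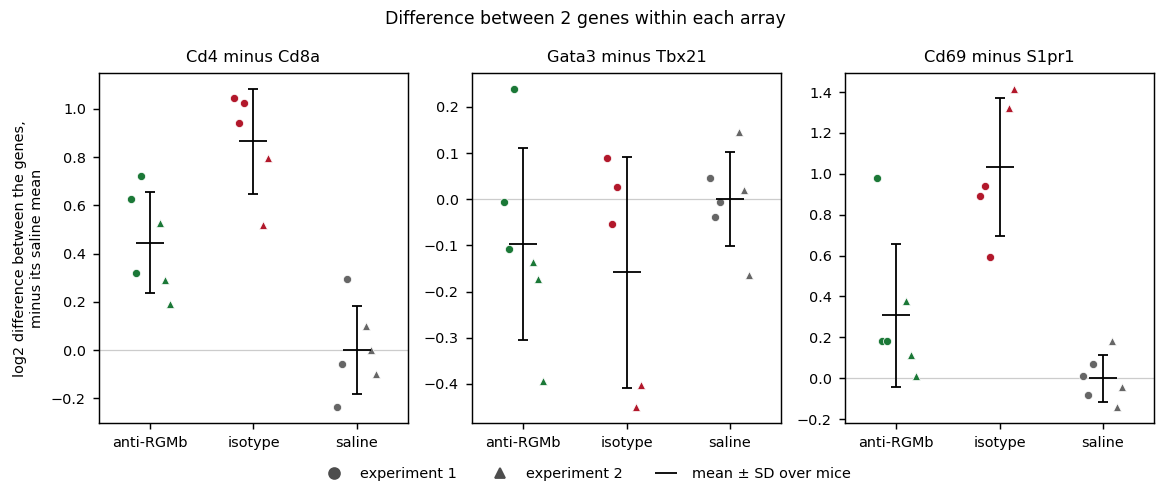
Log2 difference between 2 genes within each array, minus its saline mean in the same experiment, for Cd4 and Cd8a, Gata3 and Tbx21, and Cd69 and S1pr1, with circles for experiment 1, triangles for experiment 2 and the mean ± SD in black. For Cd4 minus Cd8a all isotype mice lie above 0.5 and all saline mice below 0.3, and for Cd69 minus S1pr1 anti-RGMb mouse 1 lies at 0.98, within the range of isotype mice.

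Of the 7 proximal signalling genes, 6 fell in anti-RGMb against isotype mice and 6 rose in isotype against saline mice, with Trat1 the exception in both. Zap70, the kinase that binds the phosphorylated CD3 and zeta chains, stood at 0.02, 0.07 and 0.09 in anti-RGMb mice, 0.11, 0.21, 0.33, 0.66 and 0.49 in isotype mice and -0.05, -0.02 and 0.07 in saline mice. All anti-RGMb mice lay in a narrow band below every isotype mouse, and isotype mice lay above every saline mouse. The difference was -0.31 ± 0.07 between anti-RGMb and isotype mice (adjusted p = 0.00306), 0.37 ± 0.07 between isotype and saline mice (adjusted p = 0.000299), and 0.06 ± 0.07 between anti-RGMb and saline mice (adjusted p = 0.712).

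Lat, the adaptor on which the signalling complex assembles, stood at 0.04, 0.05 and 0.39 in anti-RGMb mice, 0.20, 0.12, 0.37, 0.82 and 0.57 in isotype mice and -0.22, 0.01 and 0.12 in saline mice. Isotype mice of experiment 2 were the highest and anti-RGMb mouse 1 stood apart from its group. Lat fell in anti-RGMb against isotype mice (-0.31 ± 0.10, adjusted p = 0.0393) and rose in isotype against saline mice (0.43 ± 0.10, adjusted p = 0.00304). The first call was lost in 8 of the 17 fits, those without anti-RGMb mouse 2, 3, 1-2, 2-2 or 3-2 or isotype mouse 3, 1-2 or 2-2, with the value nearest 0, -0.21, and the highest adjusted p, 0.137, without isotype mouse 1-2.

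Sh2d2a, which encodes the adaptor TSAd that binds the kinase LCK, stood at 0.26, 0.35 and 0.57 in anti-RGMb mice, 0.58, 0.65, 0.65, 1.26 and 1.11 in isotype mice and -0.18, -0.0045 and 0.15 in saline mice. The 3 groups did not overlap in any pairing. Sh2d2a fell in anti-RGMb against isotype mice (-0.48 ± 0.11, adjusted p = 0.00322), with log2 differences of -0.18 in experiment 1 and -0.88 in experiment 2 and an interaction of -0.70 (adjusted p = 0.0355). No gene of the 31 passed the interaction without anti-RGMb mouse 3, 1-2, 2-2 or 3-2 or isotype mouse 1, 3 or 2-2, or under quantile normalization. It rose in isotype against saline mice (0.86 ± 0.11, adjusted p = 4.93e-06). Against saline it also rose in anti-RGMb mice (0.38 ± 0.10, adjusted p = 0.032), a call lost in 6 of 17 fits, those without saline mouse 1, 2-2 or 3-2 or anti-RGMb mouse 1, 2 or 3, at 0.33 to 0.37 and adjusted p up to 0.0797.

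Sh2d1a, which encodes the SLAM receptor adaptor SAP needed for help to B cells, ranged over 0.14 to 0.29 in anti-RGMb mice, 0.32 to 1.07 in isotype mice and -0.23 to 0.20 in saline mice. Skap1, an adaptor of integrin activation, ranged over -0.05 to 0.12 in anti-RGMb mice, 0.14 to 0.49 in isotype mice and -0.11 to 0.12 in saline mice. In both genes every isotype mouse exceeded every mouse of the other 2 groups. Between anti-RGMb and isotype mice Sh2d1a differed by -0.42 ± 0.10 (adjusted p = 0.00664) and Skap1 by -0.28 ± 0.07 (adjusted p = 0.00432). Between isotype and saline mice the differences were 0.63 ± 0.10 and 0.34 ± 0.07 (adjusted p = 9.13e-05 and 0.000448).

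Themis, known for its role in thymocyte selection, ranged over -0.07 to 0.17 in anti-RGMb mice, 0.07 to 0.41 in isotype mice and -0.15 to 0.09 in saline mice, with overlap between all groups. It fell by 0.21 ± 0.07 in anti-RGMb against isotype mice (adjusted p = 0.0472) and rose by 0.26 ± 0.07 in isotype against saline mice (adjusted p = 0.00886). The first call was lost in 11 of 17 fits, with adjusted p up to 0.145, and kept without saline mouse 1, 3 or 2-2, anti-RGMb mouse 1, or isotype mouse 1 or 2. Trat1, a transmembrane adaptor of the receptor complex, ranged over -0.44 to 0.25 in anti-RGMb mice, -0.06 to 0.57 in isotype mice and -0.53 to 0.34 in saline mice. It passed in no comparison, with a difference of -0.27 ± 0.15 between anti-RGMb and isotype mice.

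All 4 genes that restrain the signal fell in anti-RGMb against isotype mice and rose in isotype against saline mice. Ptpn22, a phosphatase that acts on the kinases of the receptor and is found in many leukocytes, stood at 0.47, 0.84 and 0.98 in anti-RGMb mice, 1.15, 1.30, 1.17, 1.38 and 1.20 in isotype mice and -0.19, 0.03 and 0.10 in saline mice. The 3 groups were fully separate, with anti-RGMb mice between the others. Ptpn22 in isotype mice was 2.36 times the saline level (1.24 ± 0.08, adjusted p = 3.72e-09) and in anti-RGMb mice 1.75 times it (0.81 ± 0.08, adjusted p = 3.05e-06). Between anti-RGMb and isotype mice the difference was -0.43 ± 0.08 (adjusted p = 0.00125).

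Cd5, a scavenger receptor family molecule whose level follows the strength of receptor signalling, stood at 0.14, 0.22 and 0.64 in anti-RGMb mice, 0.45, 0.44, 0.62, 1.08 and 0.65 in isotype mice and -0.09, -0.02 and 0.13 in saline mice. Anti-RGMb mouse 1 and isotype mouse 1-2 were the highest of their groups, and both OVA groups lay wholly above saline. Cd5 fell by 0.37 ± 0.11 in anti-RGMb against isotype mice (adjusted p = 0.0172), which became -0.25 and did not pass without isotype mouse 1-2 (adjusted p = 0.0588), and rose by 0.65 ± 0.11 in isotype against saline mice (adjusted p = 8.63e-05).

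Cd6, the neighbour and relative of Cd5, ranged over -0.02 to 0.41 in anti-RGMb mice, 0.36 to 0.85 in isotype mice and -0.15 to 0.12 in saline mice. Ubash3a, which encodes a suppressor of receptor signalling of lymphocytes, ranged over -0.07 to 0.23 in anti-RGMb mice, 0.33 to 0.96 in isotype mice and -0.14 to 0.08 in saline mice. Only in Cd6 did an anti-RGMb mouse, mouse 1, reach the isotype range, and in both genes isotype mice lay above all saline mice. The difference between anti-RGMb and isotype mice was -0.37 ± 0.09 for Cd6 (adjusted p = 0.00742) and -0.45 ± 0.08 for Ubash3a (adjusted p = 0.000908). Between isotype and saline mice it was 0.54 ± 0.09 and 0.59 ± 0.08 (adjusted p = 0.000166 and 2.24e-05).

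The surface and costimulatory molecules were less uniform, with 1 of 4 lower in anti-RGMb against isotype mice. Thy1, a pan-T cell surface protein in mice that fibroblasts and innate lymphoid cells also carry, stood at 0.05, 0.27 and 0.55 in anti-RGMb mice, 0.40, 0.45, 0.52, 0.95 and 0.55 in isotype mice and -0.13, -0.03 and 0.19 in saline mice. Isotype mouse 1-2 stood above its group, anti-RGMb mouse 1 alone reached the isotype range, and isotype mice lay above all saline mice. Thy1 rose in isotype against saline mice (0.57 ± 0.10, adjusted p = 0.000139) and fell in anti-RGMb against isotype mice (-0.29 ± 0.10, adjusted p = 0.0452). The second call was lost in 12 of 17 fits, with adjusted p up to 0.15, and kept without anti-RGMb mouse 1, isotype mouse 1 or 2, or saline mouse 1-2 or 3-2.

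Cd2, the adhesion receptor for CD48 in mice, ranged over -0.13 to 0.52 in anti-RGMb mice, 0.11 to 0.58 in isotype mice and -0.19 to 0.17 in saline mice. It rose in isotype against saline mice (0.36 ± 0.11, adjusted p = 0.0142), and not when isotype mouse 1-2 was left out (0.29, adjusted p = 0.0559). It did not pass between anti-RGMb and isotype mice (-0.24 ± 0.11, adjusted p = 0.126) unless anti-RGMb mouse 1 was left out (-0.33, adjusted p = 0.0186). Cd27, a costimulatory receptor of naive and memory T cells, ranged over -0.27 to 0.09 in anti-RGMb mice, -0.29 to -0.11 in isotype mice and -0.08 to 0.11 in saline mice. Unlike the genes above it fell in isotype against saline mice (-0.18 ± 0.06, adjusted p = 0.0251), with every isotype mouse below every saline mouse, but the call was lost without saline mouse 3, isotype mouse 1 or isotype mouse 2 (adjusted p up to 0.078). Cd96, a receptor of T and natural killer cells that binds the poliovirus receptor, passed in no comparison and differed by -0.14 ± 0.10 between anti-RGMb and isotype mice. Without anti-RGMb mouse 1 that difference was -0.24 and passed (adjusted p = 0.0306).

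Both cytokine receptor chains fell in anti-RGMb against isotype mice and rose in isotype against saline mice. Il7r, the alpha chain of the receptors for IL-7 and TSLP that T cells and innate lymphoid cells carry, stood at 0.23, 0.63 and 1.03 in anti-RGMb mice, 1.37, 1.63, 1.09, 1.71 and 1.47 in isotype mice and -0.30, 0.06 and 0.27 in saline mice. Every isotype mouse lay above every mouse of the other 2 groups, and anti-RGMb mouse 3-2, at the bottom of its group, was within the saline range. In anti-RGMb mice Il7r was 0.557 times the isotype level (-0.84 ± 0.14, adjusted p = 0.000281), and it was 2.73 times saline in isotype mice (1.45 ± 0.14, adjusted p = 2.25e-07). It was 1.52 times saline in anti-RGMb mice (0.60 ± 0.13, adjusted p = 0.00756).

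Il2rb, the chain shared by the receptors for IL-2 and IL-15 and also abundant on natural killer cells, stood at -0.06, 0.33 and 0.85 in anti-RGMb mice, 0.34, 0.63, 0.46, 1.24 and 1.22 in isotype mice and -0.14, 0.0021 and 0.10 in saline mice. The 2 isotype mice of experiment 2 stood above all other mice, and the isotype mice of experiment 1 lay within the anti-RGMb range. Il2rb fell by 0.44 ± 0.15 in anti-RGMb against isotype mice (adjusted p = 0.048), with log2 differences of -0.14 in experiment 1 and -0.85 in experiment 2. This call was lost in 12 of 17 fits, with adjusted p up to 0.161, and kept without saline mouse 1 or 2-2, anti-RGMb mouse 1, or isotype mouse 1 or 3. The rise in isotype against saline mice was 0.80 ± 0.15 (adjusted p = 0.000388).

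Of the 5 lineage factors, Maf alone was lower in anti-RGMb than in isotype mice at the threshold. Maf, a factor of cytokine expression in helper T cells that macrophages also use, stood at 0.31, 0.37 and 0.49 in anti-RGMb mice, 0.78, 0.65, 0.56, 0.87 and 0.90 in isotype mice and -0.08, 0.02 and 0.05 in saline mice. The 3 groups did not overlap, and anti-RGMb mice lay between isotype and saline mice. The differences were -0.37 ± 0.06 between anti-RGMb and isotype (adjusted p = 0.000256), 0.76 ± 0.06 between isotype and saline (adjusted p = 2.33e-08) and 0.39 ± 0.06 between anti-RGMb and saline mice (adjusted p = 0.000235).

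Gata3, the factor of type 2 helper cells, which airway epithelium also expresses, stood at -0.33, -0.07 and 0.05 in anti-RGMb mice, -0.10, -0.09, 0.007, -0.11 and -0.23 in isotype mice and -0.14, -0.0035 and 0.16 in saline mice. It did not pass in any comparison, and the 95% interval was -0.12 to 0.14 between anti-RGMb and isotype mice and -0.25 to 0.02 between isotype and saline mice. Tbx21, the factor of type 1 helper and natural killer cells, ranged over -0.23 to 0.12 in anti-RGMb mice, -0.19 to 0.34 in isotype mice and -0.04 to 0.03 in saline mice and passed in none either. Neither gene separated the groups over both experiments. In experiment 2 alone, which holds 2 isotype mice, Tbx21 rose in isotype against saline mice (0.26, limma adjusted p = 0.0483). In experiment 1 that difference was -0.08. The difference between Gata3 and Tbx21 within arrays differed by 0.10 between anti-RGMb and isotype mice, by -0.18 between isotype and saline mice and by -0.10 between anti-RGMb and saline mice (exact permutation, adjusted p = 0.27, 0.161 and 0.3). Between isotype and saline mice it was 0.02 in experiment 1 and -0.43 in experiment 2. Bcl11b, the factor of commitment to the T lineage, ranged over -0.11 to 0.20 in anti-RGMb mice, -0.0032 to 0.22 in isotype mice and -0.11 to 0.08 in saline mice, with differences of -0.05 ± 0.06, 0.09 ± 0.06 and 0.04 ± 0.06 in the 3 comparisons, none past the threshold.

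Lef1, a partner of beta-catenin that naive T cells express and that other lung cells use too, stood at -0.53, -0.34 and -0.06 in anti-RGMb mice, -0.50, -0.56, -0.19, -0.30 and -0.58 in isotype mice and -0.21, 0.02 and 0.18 in saline mice. Below the lowest saline mouse lay 4 of 6 anti-RGMb and 4 of 5 isotype mice. Lef1 fell by 0.44 ± 0.09 in isotype against saline mice (adjusted p = 0.000871). Between anti-RGMb and saline mice it missed the threshold (-0.29 ± 0.09, adjusted p = 0.0508), which it passed in 5 of 17 fits with a mouse left out (without anti-RGMb mouse 1, isotype mouse 3, 1-2 or 2-2, or saline mouse 2-2), at an adjusted p as low as 0.0342. The difference between anti-RGMb and isotype mice was 0.14 ± 0.09 (adjusted p = 0.302).

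S1pr1 and Cd69 act against each other in T cells, where CD69 takes the exit receptor S1PR1 off the surface. S1pr1 stood at -0.05, 0.05 and 0.17 in anti-RGMb mice, -0.62, -0.45, -0.26, -0.74 and -0.65 in isotype mice and -0.14, -0.03 and 0.24 in saline mice. All isotype mice lay below all other mice, and all anti-RGMb mice lay within the saline range. S1pr1 in anti-RGMb mice was 1.52 times the isotype level (0.60 ± 0.08, adjusted p = 6.47e-05), and it was 0.683 times saline in isotype mice (-0.55 ± 0.08, adjusted p = 3.74e-05). The difference between anti-RGMb and saline mice was 0.05 ± 0.08, with a 95% interval of -0.12 to 0.21.

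Endothelial cells, rich in lung, also express S1pr1, and their markers moved in its direction in the 2 comparisons with isotype mice. Of 12 endothelial markers, 10 were higher and 2 not past in anti-RGMb against isotype mice (median 0.37), and all 12 fell in isotype against saline mice (median -0.47). Of all genes, 11.1% were higher in the first and 21.0% fell in the second. In anti-RGMb against saline mice 1 marker fell, against 2.24% of all genes, and 11 did not pass (median -0.11). There 4 were lower and 0 higher at an unadjusted p under 0.05 in limma. Kdr, a receptor for vascular endothelial growth factor, differed by 0.53 ± 0.07 between anti-RGMb and isotype mice and Egfl7, a secreted endothelial protein, by 0.52 ± 0.06 (adjusted p = 7.85e-05 and 2.46e-05). The mean of the list ranged over -0.21 to -0.04 in anti-RGMb mice, -0.67 to -0.30 in isotype mice and -0.03 to 0.02 in saline mice. The part of endothelial cells in the result on S1pr1 was not tested.

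Cd69, an early activation antigen and retention molecule, stood at -0.04, 0.31 and 0.93 in anti-RGMb mice, 0.27, 0.49, 0.34, 0.59 and 0.77 in isotype mice and -0.23, -0.04 and 0.25 in saline mice. Anti-RGMb mouse 1 had the highest level of all mice, and isotype mice lay above all saline mice. Cd69 rose in isotype against saline mice (0.49 ± 0.14, adjusted p = 0.0105) and did not pass between anti-RGMb and isotype mice (-0.13 ± 0.14, adjusted p = 0.566). The log2 difference between Cd69 and S1pr1 was lower in anti-RGMb than in isotype mice (-0.73, exact permutation p = 0.025, adjusted p = 0.045), a call lost in exact tests without any 1 OVA mouse except anti-RGMb mouse 1, at -0.63 to -0.84. It was higher by 1.06 in isotype against saline mice (p = 0.005, adjusted p = 0.015, exact) and by 0.31 in anti-RGMb against saline mice (p = 0.03, adjusted p = 0.045, exact). The last call was lost in every exact test with 1 mouse left out other than those without saline mouse 1-2 or anti-RGMb mouse 3-2. Without anti-RGMb mouse 1 the difference was 0.17 (adjusted p = 0.09, exact). Isotype mice do not enter this comparison. Without any 1 of them the difference stayed at 0.31 and the exact permutation p at 0.03. Only the adjusted p moved there, to between 0.054 and 0.0675, through the other tests adjusted together with it.

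Other genes of the receptor pathway are given by list, beside medians over all genes of 0.03 in anti-RGMb against isotype mice and -0.04 in isotype against saline mice. Counts in this and every list below stand beside these shares of all genes. In anti-RGMb against isotype mice 10.0% were lower and 11.1% higher, and in isotype against saline mice 14.6% rose and 21.0% fell. In anti-RGMb against saline mice 4.26% rose and 2.24% fell. Of 20 measured genes downstream of the complex, 11 fell, 1 rose and 8 did not pass in anti-RGMb against isotype mice (median -0.31), and 14 rose, 1 fell and 5 did not pass in isotype against saline mice (median 0.51). Malt1, a protease of the signal to NF-kappaB, differed by -0.87 ± 0.09 between anti-RGMb and isotype mice, and Vav1, an exchange factor, by -0.81 ± 0.10 (adjusted p = 4.51e-06 and 2.88e-05). Many of these genes serve in other leukocytes too. Of 18 inhibitors of the signal, 11 fell and 7 did not pass in anti-RGMb against isotype mice (median -0.28), and 13 rose, 2 fell and 3 did not pass in isotype against saline mice (median 0.45). Sla, an adaptor that lowers receptor levels, differed by -0.59 ± 0.08 between anti-RGMb and isotype mice and by 1.54 ± 0.08 between isotype and saline mice (adjusted p = 4.62e-05 and 1.14e-10). In anti-RGMb against saline mice 5 of the 20 downstream genes and 6 of the 18 inhibitors rose.

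Lists of activated and resident T cells and of naive and recirculating lymphocytes had medians of opposite sign in anti-RGMb against isotype and in isotype against saline mice. Of 19 activation and residency genes, 15 fell in anti-RGMb against isotype mice (median -0.59) and 18 rose in isotype against saline mice (median 0.97), while 12 rose in anti-RGMb against saline mice (median 0.41). Irf4, a factor induced by receptor signalling, differed by -1.19 ± 0.09 between anti-RGMb and isotype mice, and Il2ra, the inducible IL-2 receptor chain, by -1.02 ± 0.13 (adjusted p = 8.06e-07 and 3.81e-05). Il2ra is also among the markers of group 2 innate lymphoid cells given below. Macrophage and monocyte markers had medians of the same signs in the first 2 of these comparisons (-0.60 and 1.63). Which cells of the lung carried the differences of this list was not tested. Of 12 naive and recirculation genes, 4 were higher and 8 not past in anti-RGMb against isotype mice (median 0.16), and 6 fell, 1 rose and 5 did not pass in isotype against saline mice (median -0.16). In anti-RGMb against saline mice 0 of the 12 passed in limma (median 0.02), with 3 lower and 0 higher at an unadjusted p under 0.05. Klf2, the factor that drives S1pr1 in T cells and is abundant in endothelium, differed by 0.57 ± 0.09 between anti-RGMb and isotype mice and by -0.46 ± 0.09 between isotype and saline mice (adjusted p = 0.000141 and 0.000336). The constant regions of the receptor itself are not analysed here.

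Markers of other leukocytes moved in the same comparisons, and their part in the results on the 31 genes was not tested. Of 11 macrophage and monocyte markers, 9 fell in anti-RGMb against isotype mice (median -0.60) and 10 rose in isotype against saline mice (median 1.63), and the mean of the list ranged over 0.77 to 1.30 in anti-RGMb mice, 1.45 to 1.90 in isotype mice and -0.14 to 0.12 in saline mice. C1qa, a complement chain made by macrophages, differed by -0.83 ± 0.09 between anti-RGMb and isotype mice and by 2.43 ± 0.09 between isotype and saline mice (adjusted p = 1.13e-05 and 4.56e-12). Of 11 B cell markers, 8 fell in the first of these comparisons and 7 rose and 1 fell in the second (medians -0.36 and 0.37), with list means of -0.13 to 0.14 in anti-RGMb, 0.11 to 0.70 in isotype and -0.08 to 0.15 in saline mice. Cd22, an inhibitory receptor of B cells, differed by -0.47 ± 0.09 and 0.66 ± 0.09 in them (adjusted p = 0.00115 and 1.47e-05). Dendritic cell markers, which include genes seen in macrophages, fell in 4 of 9 in the first and rose in 5 and fell in 1 of 9 in the second (medians -0.28 and 0.50), while 2 were higher in the first at an unadjusted p under 0.05, with list means of 0.21 to 0.66 in anti-RGMb, 0.45 to 0.83 in isotype and -0.13 to 0.08 in saline mice. Eosinophil markers fell in 6 of 8 in the first and rose in 8 of 8 in the second (medians -0.69 and 1.78, the highest rise 8.10), with list means of 1.00 to 2.39 in anti-RGMb, 2.51 to 2.97 in isotype and -0.17 to 0.09 in saline mice. Epx, Il5ra and Rnase2a, 3 of the 8, were below the lower quartile of genes in saline mice.

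Lymphocytes that share T lineage genes were looked at in the same way. Of 9 markers of group 2 innate lymphoid cells, which include Gata3 and Il2ra, 3 fell and 1 rose in anti-RGMb against isotype mice (median -0.12) and 6 rose and 1 fell in isotype against saline mice (median 0.42), with list means of 0.20 to 0.28 in anti-RGMb, 0.34 to 0.67 in isotype and -0.04 to 0.05 in saline mice. Of 11 natural killer cell markers, 0 passed in anti-RGMb against isotype mice and 0 in anti-RGMb against saline mice in limma, with 0 in each at an unadjusted p under 0.05. In isotype against saline mice 1 rose and 2 fell, against 14.6% and 21.0% of all genes. Ncr1, the natural cytotoxicity receptor, was 1 of those that fell (-0.57 ± 0.14, limma adjusted p = 0.00428). Below the lower quartile of genes in saline mice were 4 of the 11 markers. Their list means were -0.28 to 0.26 in anti-RGMb, -0.45 to 0.17 in isotype and -0.22 to 0.13 in saline mice. Of 7 thymocyte markers, 1 of which is Cd8b1, 0 passed in any comparison in limma and 1 was higher at an unadjusted p under 0.05 in anti-RGMb against isotype mice. Rag1, Rag2, Dntt and Arpp21, which thymocytes express while they rearrange their receptor genes, were below the lower quartile in saline mice.

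Markers of structural lung cells had medians above 0 in anti-RGMb against isotype mice. Of 10 epithelial markers, 6 were higher in anti-RGMb against isotype mice (median 0.21) and 7 fell in isotype against saline mice (median -0.24), with list means of -0.18 to -0.06 in anti-RGMb, -0.46 to -0.34 in isotype and -0.04 to 0.05 in saline mice. Of 10 fibroblast markers, 4 were higher and 2 lower in anti-RGMb against isotype mice (median 0.42), and 3 rose and 5 fell in isotype against saline mice (median -0.46), with list means of -0.08 to 0.34 in anti-RGMb, -0.40 to 0.08 in isotype and -0.21 to 0.13 in saline mice.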

How the data were processed

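Lung RNA of 17 mice was measured on 1 array each. The deposited table holds 1 intensity per probe set on a linear scale, as read from the values, which the authors made with RMA per the submitters' processing notes (version not given in the sources used here). All 17 columns were matched to a sample, with 0 unmatched. Here log2 was taken with no added constant. Of 24679 probe sets, 21354 had 1 gene symbol in the platform annotation, 1275 several and 2050 none. Those with 1 symbol were kept, the brightest per gene, which left 19751 genes. Linear models of group plus experiment were fitted with limma 3.58.1 in R 4.3.3 (eBayes, 13 residual and 4.32 prior degrees of freedom), and p-values were adjusted by Benjamini-Hochberg over all genes of a comparison. Differences within experiments and interactions came from a fit of all 6 combinations of group and experiment. Differences between 2 genes within arrays were tested by exact permutation within experiments. The fit was tested on simulated data. Alternatives were no term for the experiment, mouse number as a block, leaving out the dimmest 40% of genes, the mean of a gene's probe sets, quantile normalization, an intensity trend, each experiment alone, a change of at least 1.25-fold, and each mouse left out. The members and the gene lists were chosen with earlier results of these data known. By rule all 31 members are named, and of each other list at most 4 genes with the smallest p of a comparison. Only the mouse is named as the unit of replication, and the number of arrays limits the precision.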

Additional observations from a re-analysis of the deposited data

Results flagged for a closer look

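In 4 of 93 sets of values (31 genes in 3 groups), 1 mouse stood apart by Dixon's gap ratio at its 95% critical value, which chance passes in about 1 in 20 sets. Lat in anti-RGMb mouse 1 was at 0.39, where the other anti-RGMb mice lay between 0.04 and 0.13. Cd5 in the same mouse was at 0.64, where the others lay between 0.14 and 0.26. Thy1 in isotype mouse 1-2 was at 0.95, where the others lay between 0.40 and 0.55. Trat1 in isotype mouse 2-2 was at 0.57, where the others lay between -0.06 and 0.11. All these are log2 levels relative to the saline mean of the same experiment. The difference between anti-RGMb and isotype mice in Sh2d2a itself differed between the experiments, by -0.70 (experiment 2 minus experiment 1, limma adjusted p = 0.0355), from log2 differences of -0.18 in experiment 1 and -0.88 in experiment 2.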

How the results depend on the processing

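With no replicate block for the experiment, 0 of the 31 genes passed in limma in each comparison, and 0, 2 and 0 had an unadjusted p under 0.05 in anti-RGMb against isotype, isotype against saline and anti-RGMb against saline mice. That fit leaves the offset between experiments in the residual and moves the median of all genes to 0.19 and -0.20 in the first and second comparison, since the groups are unequal in experiment 2. With mouse number within the experiment as a replicate block, 13, 22 and 4 genes passed. The mouse numbers were not taken as pairs in the main fit. Of 16 same-numbered pairs, 3 had residual correlations over 0.1, and all lay between -0.60 and 0.30. With 2 or 3 mice per group and experiment, these correlations cannot decide whether the numbers pair the mice. The block lost Cd3g, Lat, Themis, Thy1 and Il2rb in the first comparison, Cd27 in the second and Sh2d2a in the third. Experiment 1 alone gave 2 genes in the first comparison, and experiment 2 alone gave 2 in the third. Counts with 1 mouse left out were 12 to 20, 21 to 24 and 4 to 8 genes in the 3 comparisons. For the interaction they were 0 to 1 gene, against 0 under quantile normalization and 2 when the dimmest 40% of genes were dropped, where Cd3d, Trat1, Sh2d1a, Themis and Cd69 were not tested. No gene changed sign with a call under any alternative run. For Cd69 minus S1pr1, anti-RGMb against saline mice gave 0.28 under quantile normalization (exact permutation, adjusted p = 0.135) and 0.17 to 0.36 with 1 mouse left out. Cd69 minus S1pr1 gave -0.91 to -0.63, and Cd4 minus Cd8a -0.45 to -0.33, in anti-RGMb against isotype mice with 1 mouse left out. Lef1 passed in anti-RGMb against saline mice under quantile normalization, the intensity trend and the dim-gene filter. The 2 isotype mice of experiment 2 limit its precision. Trat1 lay below the lower quartile of genes in saline mice, as did Sh2d1a in experiment 2.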
